A study of Mus musculus with 7 samples.

Results

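The 34 genes described here mark excitatory, glutamate-releasing neurons of the mouse hippocampus, and they were followed in a pull-down aimed at the opposite class, the GABAergic neurons. They were chosen as a list of symbols and read from a table of 39017 Ensembl gene IDs, in which all 34 had a row. By field, 12 are general pyramidal genes, 6 are CA1 genes, 4 are CA2 genes, 4 are CA3 genes and 8 are dentate granule genes, an assignment that follows the order of the list and general knowledge of the hippocampus and not these data, with Man1a and Cpne4 the least certain. The data were read counts per gene from 7 hippocampal libraries made by translating ribosome affinity purification (TRAP), in which ribosomes carrying an EGFP-tagged L10 protein are pulled down with the RNA they hold. All mice were described as carrying both Gad2-driven Cre and the L10-EGFP allele, and each TRAP sample pooled 2 hippocampi. The 3 bound libraries (GAD_ctrl1, GAD_ctrl2 and GAD_ctrl3) hold RNA from the pull-down, and the 4 unbound libraries (UBS7, UBS8, UBGS8 and UBGS9, here replicates 1 to 4) hold RNA labelled as unbound. The labels give no age, sex, strain or drug, do not explain the title prefixes, and do not say which libraries came from the same animals, and p-values therefore rest on library-to-library spread only, which may be technical. Tagged ribosomes are made in every cell in which the Gad2-driven Cre has acted, now or earlier in its lineage.

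Pyramidal neurons and granule cells are the glutamatergic projection neurons of the hippocampus. They arise from the dorsal telencephalon under transcription factors that include the Emx homeobox proteins, Tbr1 and the NeuroD helix-loop-helix proteins, whereas GABAergic interneurons migrate in from the ganglionic eminences. Granule cells of the dentate gyrus send mossy fibres to CA3, CA3 cells project to CA1, and CA2 is a small field between them, and each field is known by a set of genes that is more restricted than the general programme.

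NeuroD proteins bind E-boxes, whose letters are CANNTG. The 250 bases before the transcription start are shown for 4 of the genes, which were picked by their fold changes and serve as examples only. Neurod6 and Neurod2 were the most depleted of the general genes, Lct was among the most depleted of the granule genes and Pcp4 was the gene with the largest rise. Sequences are from RefSeq on GRCm38.p6, read 5′ to 3′ on the gene's strand, and capitals mark every CANNTG match.
Neurod6 (chr6:55681264-55681513, minus strand): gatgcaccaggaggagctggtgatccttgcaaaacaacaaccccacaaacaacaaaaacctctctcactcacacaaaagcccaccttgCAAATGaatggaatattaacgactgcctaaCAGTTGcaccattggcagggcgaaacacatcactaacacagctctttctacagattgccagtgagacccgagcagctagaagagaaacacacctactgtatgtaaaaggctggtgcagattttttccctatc
Neurod2 (chr11:98329646-98329895, minus strand): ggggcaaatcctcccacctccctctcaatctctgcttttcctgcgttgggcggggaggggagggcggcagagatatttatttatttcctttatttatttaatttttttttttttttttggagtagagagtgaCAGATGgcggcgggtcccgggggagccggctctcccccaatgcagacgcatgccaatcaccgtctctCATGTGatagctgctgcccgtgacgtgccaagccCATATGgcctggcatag
Lct (chr1:128328319-128328568, minus strand): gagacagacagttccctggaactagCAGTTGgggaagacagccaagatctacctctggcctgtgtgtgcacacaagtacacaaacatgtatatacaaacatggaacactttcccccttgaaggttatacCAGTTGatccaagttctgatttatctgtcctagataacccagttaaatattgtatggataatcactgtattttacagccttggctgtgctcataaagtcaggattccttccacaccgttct
Pcp4 (chr16:96467356-96467605, plus strand): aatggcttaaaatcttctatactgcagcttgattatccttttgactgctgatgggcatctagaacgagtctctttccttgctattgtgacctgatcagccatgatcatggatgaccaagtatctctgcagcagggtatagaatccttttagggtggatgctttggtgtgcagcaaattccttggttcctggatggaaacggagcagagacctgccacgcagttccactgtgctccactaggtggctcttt
The windows of Neurod6 and Lct each held 2 E-boxes, that of Neurod2 held 3, one of them CAGATG, and that of Pcp4 held none. Over the 32851 windows of all genes in the table, 66.2% held at least 1 CANNTG and 14.4% held CAGATG on either strand. CAGATG matches are also CANNTG matches. A window was found for 27 of the 34 genes, and of their 36 windows 61.1% held a CANNTG. Of the 17 genes lower by at least 8-fold in bound libraries, only 11 had a window. Among these 11, 8 had a CANNTG in at least 1 of their windows, and among the other 16 genes with a window it was 7. The deeply depleted genes Tdo2, Emx2 and Fezf2 had none, as Pcp4 did. A share per gene over all genes was not computed. Genes with several start sites had several chances of a match, so these counts are a description only.

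Library totals ranged from 38690380 to 51953811 counts, and no library looked like a second deposit of another. By chi-square per degree of freedom the 2 UBGS libraries were the closest pair within a group, at 5.57 times counting variance, with 25.04 to 46.3 for the other pairs. Transcripts encoded in mitochondria made up 28.5 to 32.9% of the unbound and 0.0867 to 0.123% of the bound counts, and their part in the results was tested only by scaling without them and Gm42418, which left the median of all genes at 0.007. Of 19563 genes tested, 12076 (61.7%) differed between bound and unbound libraries by edgeR's quasi-likelihood test at a Benjamini-Hochberg adjusted p under 0.05. The bound libraries were higher for 6072 of these genes and lower for 6004. Scaling by library totals in place of TMM, edgeR's trimmed mean scaling, raised the median log2 fold change of all genes from −0.01 to 0.43, with 9285 genes then higher and 3704 lower. An offset for exon length raised that median to 0.21, with 7630 higher and 4406 lower. All directions below are relative to TMM. The pull-down carried its target, since all 15 GABAergic neuron genes were higher, with summed levels of 6329 to 8278 CPM (counts per 1000000 of the TMM-scaled library total) in bound and 668 to 802 CPM in unbound libraries. Microglia genes were also higher, in 10 of 10 cases, with sums of 232 to 639 CPM against 78.1 to 117 CPM, and bound replicate 2 was the highest. None of the 9 astrocyte, 10 oligodendrocyte, 6 oligodendrocyte precursor, 7 endothelial and mural and 3 choroid plexus and ependymal genes that passed the test, out of 10, 10, 6, 9 and 7, was higher. Summed over all listed genes of each set, passing or not, bound levels were 235 to 261, 373 to 462, 14.1 to 18.1, 19.5 to 34.3 and 15.9 to 50.01 CPM. The unbound sums were higher, at 1980 to 2922, 1415 to 1616, 129 to 147, 109 to 125 and 969 to 1686 CPM. The last of these was mainly Ttr, with an unbound mean of 1196 CPM. Foxj1, Ccdc153, Tmem212 and Rsph1 of that set did not pass, nor did the astrocyte gene Gfap (log2 0.03). No listed marker of these cells was at 0 in all 7 libraries, though Kcnj8, a mural cell channel gene, had no count in any bound library. The part of these other cells in the results below was not tested.

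General pyramidal genes were depleted as a whole, and most field genes were lower too, with a smaller fall at the median. Of the 34 genes, 29 were lower in bound libraries, 3 were higher and 2 did not pass the test, where 30.7% of all genes tested were lower and 31.0% higher. All 34 passed the filter on low counts. The median log2 fold change was −3.07 over the 34 genes and −0.01 over all genes tested. All 12 general genes were lower, with a median of −4.81 (28-fold) and a range from −6.15 to −1.64. Of the 22 field genes, 17 were lower, 3 higher and 2 not past the threshold, with a median of −1.37. A fall of at least 8-fold was seen for 10 of the 12 general and 7 of the 22 field genes, where 4.75% of all genes tested fell so far. The 2 groups of libraries did not overlap for 30 of the 34 genes, where 63.3% of all genes did not. Fewer excitatory cells and less RNA per cell cannot be told apart in such libraries. No pull-down from untagged tissue was analysed here, so the level that RNA reaches in bound libraries without tagged ribosomes was not tested. The difference between general and field genes has no test of its own.

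**Figure D1:**
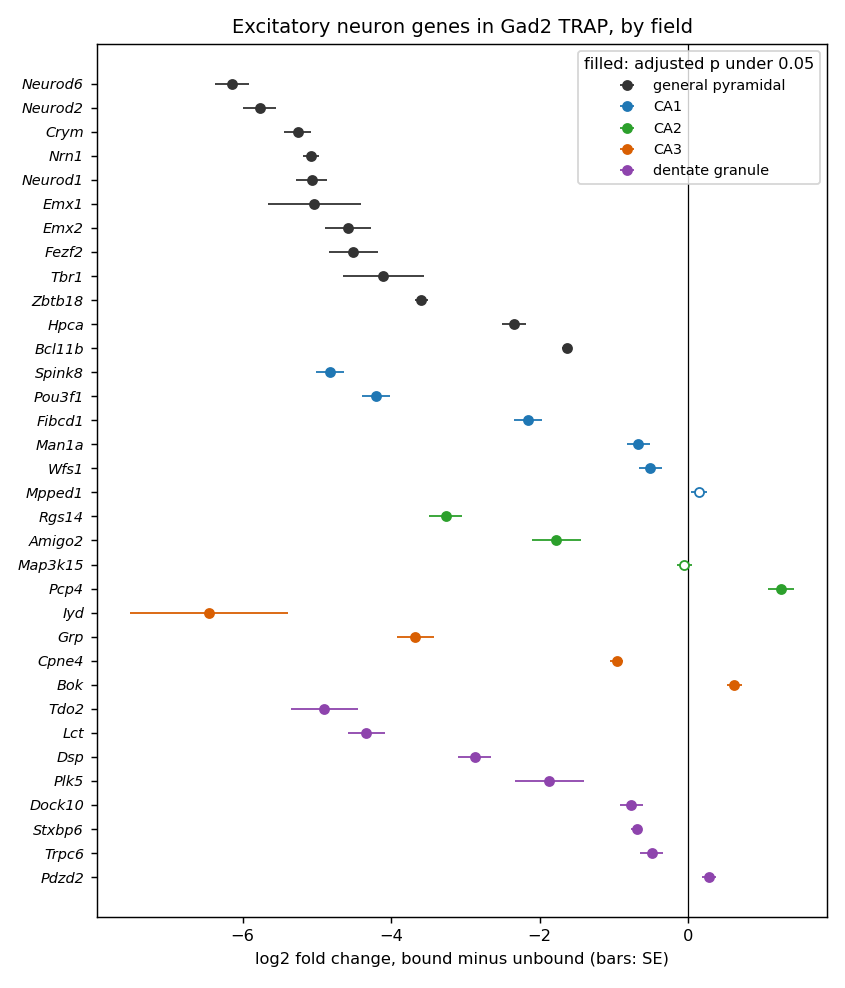
Log2 fold change (bound minus unbound, edgeR) of each of the 34 genes with its standard error, grouped by field; open circles did not pass the test. The 12 general genes lie between −6.15 and −1.64, while each field set runs from strongly negative values to values near or above 0.

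**Figure D2:**
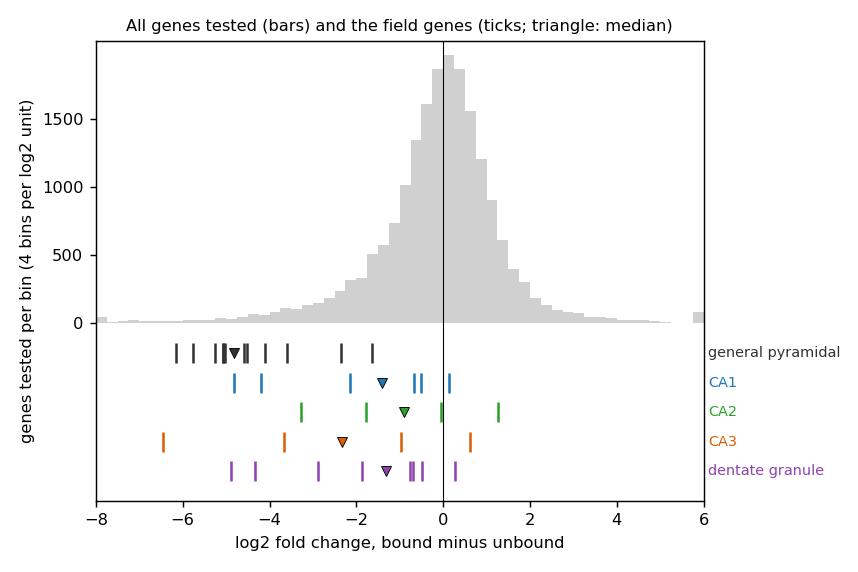
Log2 fold changes of all 19563 genes tested (bars, values beyond the axis counted in the end bars) above those of the 34 genes (ticks) with the median of each set (triangles). The median of the general set is −4.81 and those of the field sets lie from −2.32 (CA3) to −0.91 (CA2).

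The NeuroD transcription factors, which drive and maintain glutamatergic neuron identity, were among the most depleted transcripts of the series. Neurod6 stood at 233, 241, 255 and 250.2 CPM in unbound replicates 1 to 4 and at 2.02, 3.76 and 4.70 CPM in bound replicates 1 to 3. Every bound library was thus far below every unbound one (log2 −6.15, SE 0.23, edgeR adjusted p = 5.7e-09), and only 0.833% of genes tested had a fold change as low or lower. Neurod2 stood at 144, 162, 166 and 139.6 CPM in unbound and 1.68, 3.73 and 2.97 CPM in bound libraries (log2 −5.77, SE 0.23, edgeR adjusted p = 7.6e-09). Bound replicate 1 was the lowest of the bound libraries for both genes. Neurod1, which is known from granule cells and their precursors, stood at 22.9, 25.3, 26.1 and 26.9 CPM in unbound and 0.839, 0.496 and 0.953 CPM in bound libraries (log2 −5.07, SE 0.21, edgeR adjusted p = 9.5e-09). Here bound replicate 2 was the lowest. Per kilobase of exon, the unbound level was 114 CPM for Neurod6, 48.7 for Neurod2 and 9.28 for Neurod1, an order that the bound libraries kept at 1.62, 0.889 and 0.279. Exons of Neurod1 overlap those of Cerkl and Gm26755 over 13.0% of their length, and both partners were lower too (log2 −3.52 and −5.10).

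Other transcription factors of the dorsal telencephalon were also depleted. Tbr1, a T-box factor of glutamatergic neurons, stood at 30.8, 34.7, 35.9 and 34.6 CPM in unbound and 3.44, 0.352 and 2.18 CPM in bound libraries (log2 −4.11, SE 0.55, edgeR adjusted p = 0.00019). Bound replicate 2 was far below replicates 1 and 3, and without replicate 1 the value was −4.83. Emx1, a homeobox factor of the cortical and hippocampal primordium, stood at 3.56, 3.20, 3.01 and 3.63 CPM in unbound and 0.017, 0.240 and 0.023 CPM in bound libraries (log2 −5.04, SE 0.63, edgeR adjusted p = 3.9e-05). Bound replicate 2 alone carried most of its bound reads, with counts of 1 to 15 across the bound libraries, and without it the value was −7.22. Emx2, its paralogue, stood at 7.43, 9.21, 8.93 and 9.39 CPM in unbound and 0.325, 0.208 and 0.590 CPM in bound libraries (log2 −4.58, SE 0.32, edgeR adjusted p = 3.8e-07). The antisense gene Emx2os shares 8.79% of Emx2's exon length and was lower as well (log2 −4.36). Fezf2, a zinc-finger factor of cortical projection neurons, fell by 4.51 and Zbtb18, a zinc-finger repressor of cortical neurons, by 3.59 on the log2 scale, with no overlap between the groups for either.

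Bcl11b, also called Ctip2, was the general gene that fell least. This zinc-finger factor is known from CA1 and granule cells and also from GABAergic neurons of the striatum. It stood at 186, 199.6, 199 and 187 CPM in unbound and 60.8, 64.4 and 61.0 CPM in bound libraries (log2 −1.64, SE 0.07, edgeR adjusted p = 9.9e-09). The bound libraries agree closely with one another and keep 32.2% of the unbound mean, against 1.43% for Neurod6 and 1.83% for Neurod2. Hpca, hippocalcin, a calcium sensor abundant in pyramidal cells, kept 19.7% (1573 ± 185 CPM in unbound, SD, n = 4, and 310 ± 75.4 CPM in bound, SD, n = 3, log2 −2.35). It made up 53.5% of the summed general level in unbound and 73% in bound libraries, so that sum (2768 to 3192 CPM in unbound, 339 to 496 CPM in bound) mainly follows Hpca. Nrn1, neuritin, a membrane-anchored protein induced by activity, fell by 5.08, and Crym, a thyroid hormone binding protein, by 5.26. Exons of Nrn1 overlap those of Fars2 on the opposite strand over 22.3% of their length, and Fars2 stood at 6.81 CPM in unbound and 7.28 CPM in bound libraries, above the mean bound level of Nrn1. By fitted value 4 of the 34 genes, Neurod6, Neurod2, Crym and Iyd, the last on 3 bound counts in all, stood below Slc17a7, the vesicular glutamate transporter of these cells (506 ± 21.2 CPM in unbound, 14.9 ± 2.38 CPM in bound, log2 −5.09).

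**Figure D3:**
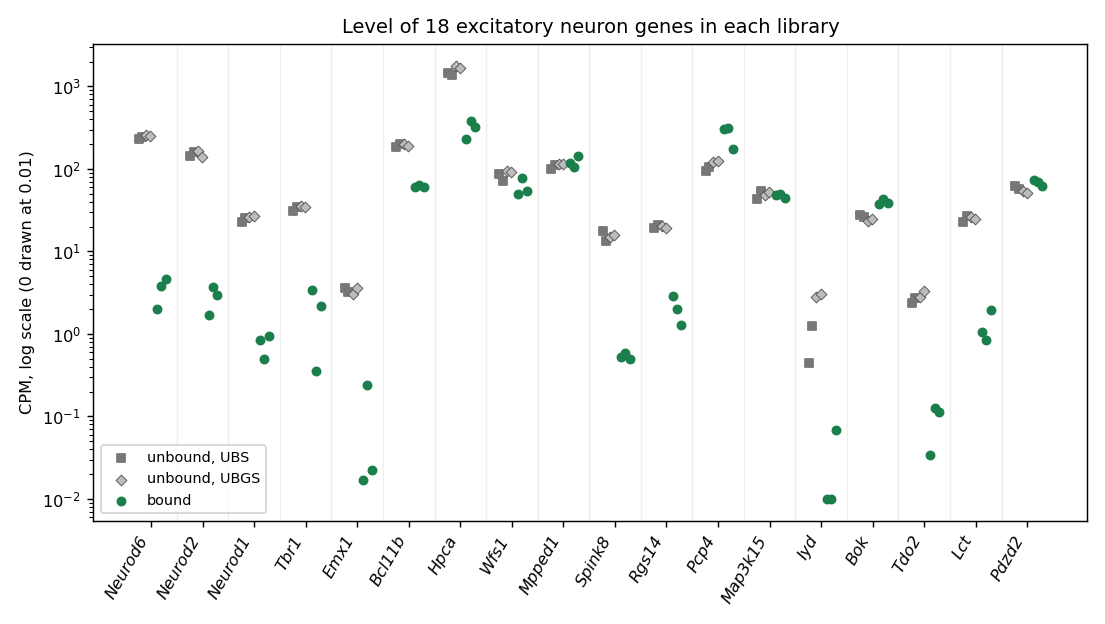
CPM on a log scale of 18 of the genes in each of the 4 unbound (squares UBS, diamonds UBGS) and 3 bound (circles) libraries, in the order of replicates from left to right. Bound and unbound libraries stand far apart for the NeuroD genes, Emx1, Iyd, Tdo2 and Lct, and overlap for Wfs1, Mpped1, Map3k15 and Pdzd2.

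CA1 genes ranged from a deep fall to no difference past the threshold (median log2 −1.41, or −2.16 without Man1a). Of the 6, 5 were lower and none higher, where 30.7% of all genes tested were lower and 31.0% higher. Spink8, a protease inhibitor of the Kazal type, stood at 17.8, 13.2, 14.8 and 15.8 CPM in unbound and 0.531, 0.592 and 0.499 CPM in bound libraries (log2 −4.82, SE 0.19, edgeR adjusted p = 7.5e-09). Pou3f1, a POU-domain transcription factor, followed at −4.20, with 8.57% of its exon length shared with Gm2164. Both values lie within the range of the general genes. Fibcd1, a membrane receptor of dorsal CA1, fell by 2.16 on the log2 scale and was higher in both UBS than in both UBGS libraries, at 48.1 and 43.3 against 31.0 and 31.3 CPM. The other 3 stood between −0.67 and 0.15. Mpped1, a metallophosphoesterase, stood at 98.6, 111, 116 and 114 CPM in unbound and 117, 105 and 144 CPM in bound libraries, which overlap (log2 0.15, SE 0.11, edgeR adjusted p = 0.25). It passed as higher with library totals (0.57) and with the exon length offset (0.43). Wfs1, wolframin, a protein of the endoplasmic reticulum used as a CA1 marker, fell by 0.51 (86.6, 70.8, 93.5 and 91.4 CPM against 49.5, 77.3 and 53.5 CPM), with bound replicate 2 inside the unbound range. Without that library the value was −0.73. It no longer passed under library totals (−0.07), the exon length offset (−0.26), the UBS libraries as sole comparison (−0.39), or on leaving out bound replicate 1 or 3 (−0.38 and −0.43, edgeR adjusted p = 0.061 and 0.055). Man1a, a mannosidase of the Golgi, fell by 0.67, a call lost with library totals and with the exon length offset (−0.23 and −0.11).

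Of the 4 CA2 genes, 2 were lower, 1 higher and 1 not past the threshold (median log2 −0.91). Over all genes tested, 30.7% were lower and 31.0% higher, so these few calls do not set the CA2 genes apart. Rgs14, a scaffold of G-protein signalling that limits plasticity in CA2, stood at 19.0, 20.6, 20.5 and 19.4 CPM in unbound and 2.86, 1.99 and 1.29 CPM in bound libraries (log2 −3.27, SE 0.23, edgeR adjusted p = 3.9e-07). Amigo2, an adhesion protein, was at −1.78, and at −2.44 without bound replicate 1, whose 6.52 CPM stood above the 2.31 and 2.45 CPM of the other bound libraries. Pcp4, a calmodulin-binding peptide first known from Purkinje cells, went the other way. It stood at 95.1, 106, 119.8 and 124 CPM in unbound and 306, 314 and 176 CPM in bound libraries, a 2.38-fold rise (log2 1.25, SE 0.17, edgeR adjusted p = 8.7e-05) in which every bound library was above every unbound one. Igsf5, whose exons share 23.7% of the length of Pcp4's on the same strand, rose by the same amount (log2 1.26). The ratio of Pcp4 to Igsf5 counts was 1.31 to 1.38 in all 7 libraries. Whether reads of the shared exons were counted for both genes was not tested, so the rise cannot be assigned to Pcp4 alone. Map3k15, a kinase, stood at 43.02, 54.1, 48.4 and 53.0 CPM in unbound and 48.9, 50.1 and 44.8 CPM in bound libraries (log2 −0.05, SE 0.10, edgeR adjusted p = 0.67). Its value was above 0 with library totals (0.38) and with the exon length offset (0.24), past the threshold in both. Its exons overlap those of Pdha1, a subunit of pyruvate dehydrogenase on the opposite strand, over 13.9% of their length. Pdha1 stood at 106 ± 8.55 CPM in unbound (SD, n = 4) and 108 ± 1.28 CPM in bound libraries (SD, n = 3), a log2 value of 0.02. The ratio of Map3k15 to Pdha1 stayed at 0.415 to 0.494. Since both genes differed little between the groups, that ratio cannot show whether reads are shared. The strand setting of the counting is not given, so shared reads remain a possible limit.

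Of the 4 CA3 genes, 3 were lower and 1 higher (median log2 −2.32, or −3.68 without Cpne4). Among all genes tested 30.7% were lower and 31.0% higher, so 1 higher gene of 4 is near the share of all genes. Iyd, iodotyrosine deiodinase, was rare. It had 15, 53, 119 and 124 counts in unbound replicates 1 to 4 and 0, 0 and 3 counts in bound replicates 1 to 3. The unbound level summed over libraries was 107 times the bound level, with a counting interval of 36.3 to 521 (95%, exact Clopper-Pearson), which covers counting error only and not the spread between libraries. The fitted value was log2 −6.46 (SE 1.07, edgeR adjusted p = 0.00032), −5.84 without bound replicate 2 and −9.47 without bound replicate 3, where no bound count is left. It was −5.25 against the UBS and −7.08 against the UBGS libraries as sole comparison. Unbound libraries also differed among themselves, at 0.441 and 1.24 CPM in UBS and 2.80 and 3.06 CPM in UBGS. Grp, gastrin-releasing peptide, fell by 3.68 on the log2 scale, from 9.93 to 11.1 CPM in unbound to 0.608 to 1.18 CPM in bound libraries. Cpne4, a copine that binds membranes in response to calcium, fell by 0.97 and kept 51.2% of its unbound level. Bok, a member of the BCL2 family, stood at 28.0, 26.4, 23.3 and 25.0 CPM in unbound and 37.7, 42.7 and 38.2 CPM in bound libraries (log2 0.62, SE 0.10, edgeR adjusted p = 0.00019), a 1.54-fold rise with no overlap. The groups did not overlap for 63.3% of all genes tested either.

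Dentate granule genes were mostly lower, 7 of 8, with 1 higher (median log2 −1.32), and ran from deep to weak falls. Of all genes tested, 30.7% were lower and 31.0% higher. Tdo2, the tryptophan dioxygenase, stood at 2.35, 2.69, 2.82 and 3.33 CPM in unbound and 0.034, 0.128 and 0.113 CPM in bound libraries (log2 −4.90, SE 0.45, edgeR adjusted p = 3.4e-06), on 2 to 8 counts in each bound library. Lct, lactase, a known granule cell marker, fell by 4.34 (22.6 to 27.2 CPM against 0.833 to 1.93 CPM), and Dsp, desmoplakin of the desmosome, fell by 2.88. Plk5, a polo-like kinase of neurons, was at −1.87, and at −2.59 without bound replicate 3. The remaining 4 kept at least 58.6% of their unbound level. Stxbp6, the syntaxin-binding protein amisyn, fell by 0.70 on the log2 scale from 117 to 138 CPM down to 71.7 to 80.5 CPM. Dock10, an exchange factor for small GTPases, fell by 0.77, a call lost with library totals (−0.32) and absent with the exon length offset (0.06). Trpc6, a cation channel, fell by 0.49, a call that was lost under library totals (−0.06), the exon length offset (−0.15), the UBGS libraries as sole comparison (−0.28), or on leaving out unbound replicate 2 (−0.40). Pdzd2, a protein with PDZ domains, stood at 62.7, 57.4, 54.5 and 50.8 CPM in unbound and 73.5, 69.0 and 62.2 CPM in bound libraries, which overlap slightly. It was higher by 0.28 (SE 0.09, edgeR adjusted p = 0.021), which did not pass against the UBS libraries as sole comparison (0.19), or on leaving out unbound replicate 3 (0.27), unbound replicate 4 (0.24) or bound replicate 1 (0.23). With the exon length offset it stood at 1.11.

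Scaled by exon length, the genes changed places between the groups. In unbound libraries the highest levels were those of Hpca at 538 ± 63.3 CPM per kilobase (SD, n = 4), Neurod6 at 114, Pcp4 at 108 and Nrn1 at 81.9. In bound libraries they were Pcp4 at 259 ± 75.3 CPM per kilobase (SD, n = 3), Hpca at 106, Mpped1 at 28.3 and Bok at 21.5. Neurod6 went from rank 2 to rank 16 of 34, Crym from 11 to 23 and Pdzd2 from 28 to 12. Across the 34 genes the levels of the 2 groups still went together (Spearman rho 0.70, a description over genes that share libraries and the same exon lengths). The fold change had little relation to the unbound level per kilobase (rho 0.07) and a weak one to exon length (0.39), with the longer genes falling less.

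**Figure D4:**
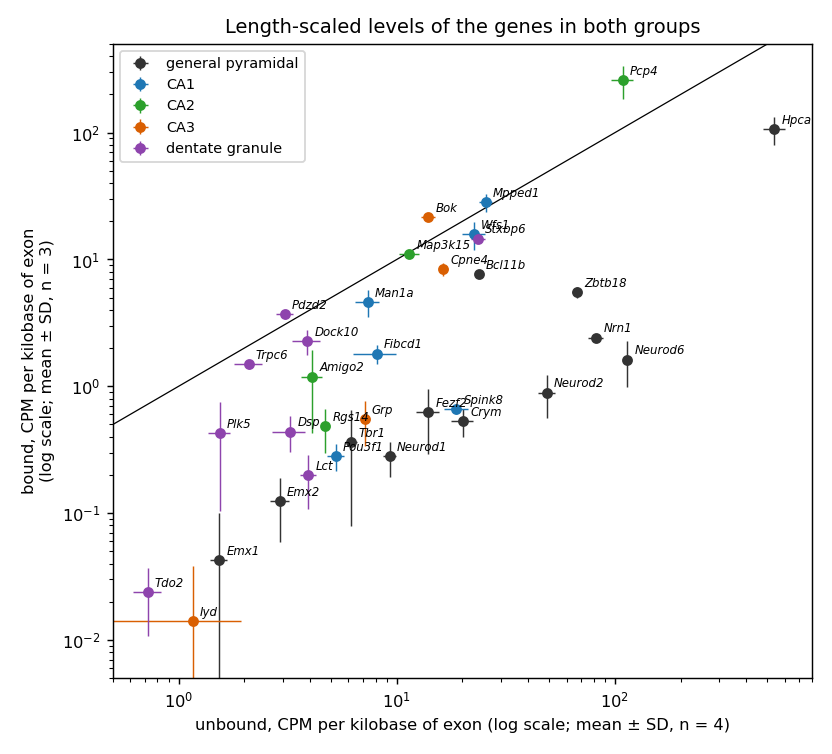
Mean level per kilobase of exon in bound against unbound libraries for the 34 genes, both axes on a log scale, with SD bars (bars that would reach 0 are drawn down to 5% of the mean or run off the axis) and the line of equal levels. Pcp4, Bok, Mpped1 and Pdzd2 lie above the line, and the NeuroD genes, Nrn1 and Crym lie far below it.

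The unbound libraries gave similar values for most of the 34 genes. The UBS mean was between 0.80 and 1.25 times the UBGS mean for 31 genes, and the exceptions were Iyd (0.287), Fibcd1 (1.47) and Trpc6 (1.28). Both UBS libraries were above both UBGS libraries for 6 genes and below them for 15, where this held for 25.3% and 25.6% of all genes tested. Among the bound libraries, replicates 1, 2 and 3 held the highest level of 11, 13 and 10 genes, and no single pull-down was highest for most of the list.

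In a second list of the excitatory programme, the further transcription factors, functional genes, CA1 genes and granule genes were mostly lower as well. The further CA1 and granule genes had the lowest medians. For comparison, 30.7% of all genes tested were lower and 31.0% higher. The few calls among the further CA3 genes and the mossy cell genes do not set those genes apart. Of 21 further transcription factors tested, 15 were lower and 3 higher (median log2 −1.53), with the largest rise that of Cux2, a homeobox factor also known from interneurons (2.15). Of 16 further functional genes, 15 were lower and none higher (median −1.78), with Slc17a7 the lowest and Cabp1, a calcium-binding protein, at 0.53 without passing (edgeR adjusted p = 0.059). Of 6 further CA1 genes, 5 were lower and 1, Galntl6, was higher (1.30; median −2.84). Of 9 further CA2 genes, 5 were lower and 3 higher (median −0.95), with Cacng5, an auxiliary subunit of AMPA receptors, at 2.72 and the vasopressin receptor gene Avpr1b at −3.80 on 6 to 14 counts in each unbound library. Of 8 further CA3 genes, 3 were lower and 2 higher (median 0.09), from Nectin3, an adhesion protein (−2.21), to Coch (0.96). Of 11 further granule genes, 9 were lower and none higher (median −2.79), with the synapse organizer C1ql2 at −5.29 and Calb1, calbindin, which interneurons also make, at 0.26 without passing (edgeR adjusted p = 0.22). Of 9 genes of hilar mossy cells, 4 were higher and 3 lower (median 0.67), from Calcrl (−2.33) to Glp1r (4.37), and these genes are known in other cells as well.

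On mm10, Neurod6 (ENSMUSG00000037984) lies on chromosome 6 from 55677822 to 55681263, Neurod2 (ENSMUSG00000038255) on chromosome 11 from 98325415 to 98329648 and Bcl11b (ENSMUSG00000048251) on chromosome 12 from 107910403 to 108003602. Pcp4 (ENSMUSG00000090223) lies on chromosome 16 from 96467606 to 96525793, Bok (ENSMUSG00000026278) on chromosome 1 from 93685660 to 93695764 and Map3k15 (ENSMUSG00000031303) on chromosome X from 159988433 to 160123351. All 34 genes are annotated as protein-coding, and each value covers all exons of its gene.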

How the data were processed

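The authors deposited 1 table of whole-number read counts per Ensembl gene for the 7 libraries. They used STAR 2.5.3a, HTSeq and mm10, per the submitters' processing notes. Annotation release, strandedness and multi-mapping rules are not given in the sources. IDs were named from GENCODE M21 (37693 of 39017), and 1 listed symbol was matched through a RefSeq synonym. Counts were filtered with filterByExpr by group, scaled by TMM and compared in edgeR 4.0.16 (R 4.3.3) with the quasi-likelihood test, robust estimation and no block, and p-values were adjusted by Benjamini-Hochberg over all 19563 genes tested, with a threshold of 0.05. Log2 fold changes are bound minus unbound, SEs come from the F statistic, and CPM use TMM-scaled totals. Levels between genes were compared per kilobase of merged exons. Library totals of 38690380 to 51953811 counts make counting error small except for genes with few reads, such as Iyd. The fit was tested on simulated counts with 100 genes changed by log2 1 and 100 by log2 2, up and down in equal numbers. It recovered 75 and 92 of them, with 16 false calls among 19093 genes. Far fewer genes changed there than in the data, so the simulation could not test the scaling. Alternatives were other scalings, filters and tests (DESeq2 1.42.0), a length offset, the UBS or UBGS libraries alone, and each library left out. Every member is named, and values per library are given for the largest and smallest change in each field, every gene higher or not passing, and the NeuroD, Tbr1, Emx and Bcl11b genes. Of the other excitatory lists the highest and lowest gene is named, except for 1 gene that is not reported here. The members and lists were chosen with earlier results of these data known.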

Additional observations from a re-analysis of the deposited data

How the results depend on the processing

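Of the 34 genes, 27 kept their direction and their side of the threshold in all 16 alternatives with a value per gene. Counts of genes called stayed within 1.5 times of 12076 except against a minimum fold of 1.5, which left 6854. The count of higher members, 3 in the main analysis, was 5 with library totals and with the exon length offset and 1 with the minimum fold. It was 2 with the UBS libraries alone, without unbound replicate 3, without unbound replicate 4 and without bound replicate 1. The count of lower members, 29 in the main analysis, was 25 with library totals and with the exon length offset and 24 with the minimum fold. The median of the CA1 genes was −0.97 with library totals and −1.05 with the length offset, and those of the CA3 and CA2 genes were −1.88 and −0.47 with library totals. Chosen after seeing the data, leaving out the member of least certain field gave −2.16 for CA1 (Man1a) and −3.68 for CA3 (Cpne4). Map3k15 changed sign with library totals (0.38), the length offset (0.24) and without unbound replicate 2, and Dock10 with the length offset (0.063). Leaving out 1 library at a time gave Map3k15 values from −0.092 to 0.008. For the scalings the shift of the median of all genes goes the same way. No paired analysis was possible because the bound and unbound titles share no replicate number. Low counts limit Iyd, Emx1 and Tdo2.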
